A study of Mus musculus with 24 samples.

Results

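AP-1 is a family of dimeric transcription factors, and the genes described here are Fos, Fosb, Fosl1 and Fosl2 of the Fos family, Jun, Junb and Jund of the Jun family, the related Atf3, and Ier2, an immediate early gene outside the leucine zipper family. The 9 genes were taken by name from a list of immediate early AP-1 genes, and all 9 were found among the 55227 gene identifiers counted in each mouse and matched to a gene name. RNA from the left tibialis anterior (TA) muscle of 24 young male wild-type (WT) C57BL/6J mice was sequenced, with 6 mice in each of 4 groups. Photobiomodulation therapy (PBMT) was a 20 min exposure of the shaved lower limbs to 830 nm light at 25 mW per square cm, or 30 J per square cm, under anesthesia. The sedentary control mice received no light and did not run, and the sedentary PBMT mice were dissected 24 h after the light. The fatigued control mice ran on a treadmill to exhaustion without light, and the fatigued PBMT mice did so 24 h after it.

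Controls had the same shaving and the same 20 min of anesthesia. The design held no group given sham light or heat alone, and mice reached exhaustion after different times. Fatigued muscle was sampled directly after the run, whereas sedentary muscle had no run before it. The sedentary and fatigued mice were sequenced as separate library projects, so exercise and library project are the same split and cannot be told apart in any comparison of fatigued with sedentary muscle. The total count per mouse ran from 43271093 to 52775844 in sedentary mice and from 53122528 to 68726155 in fatigued mice. Levels below are in CPM, counts scaled to the normalized total of each mouse, and SE stands for standard error.

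The tissue label was checked against markers of fast fibers, which make up most of this muscle. All 9 fast fiber markers were measured, and their summed level had a median of 124004 CPM in sedentary control, 137928 CPM in sedentary PBMT, 173395 CPM in fatigued control and 168359 CPM in fatigued PBMT mice. Myh4, the fast type IIb myosin, was the most abundant of them. The summed level of 6 slow fiber markers had a median between 45.7 and 72.4 CPM in the same groups.

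Fos proteins pair with Jun proteins, whereas Jun proteins also pair with each other, and the dimers bind short DNA elements named TRE and CRE. Most of these genes are immediate early genes, whose transcription starts within minutes of a stimulus from mechanical load, calcium, growth factors or stress and usually fades within hours. In skeletal muscle they are known to respond to contraction, and in satellite and interstitial cells to injury and to tissue dissociation.

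**Figure D1:**
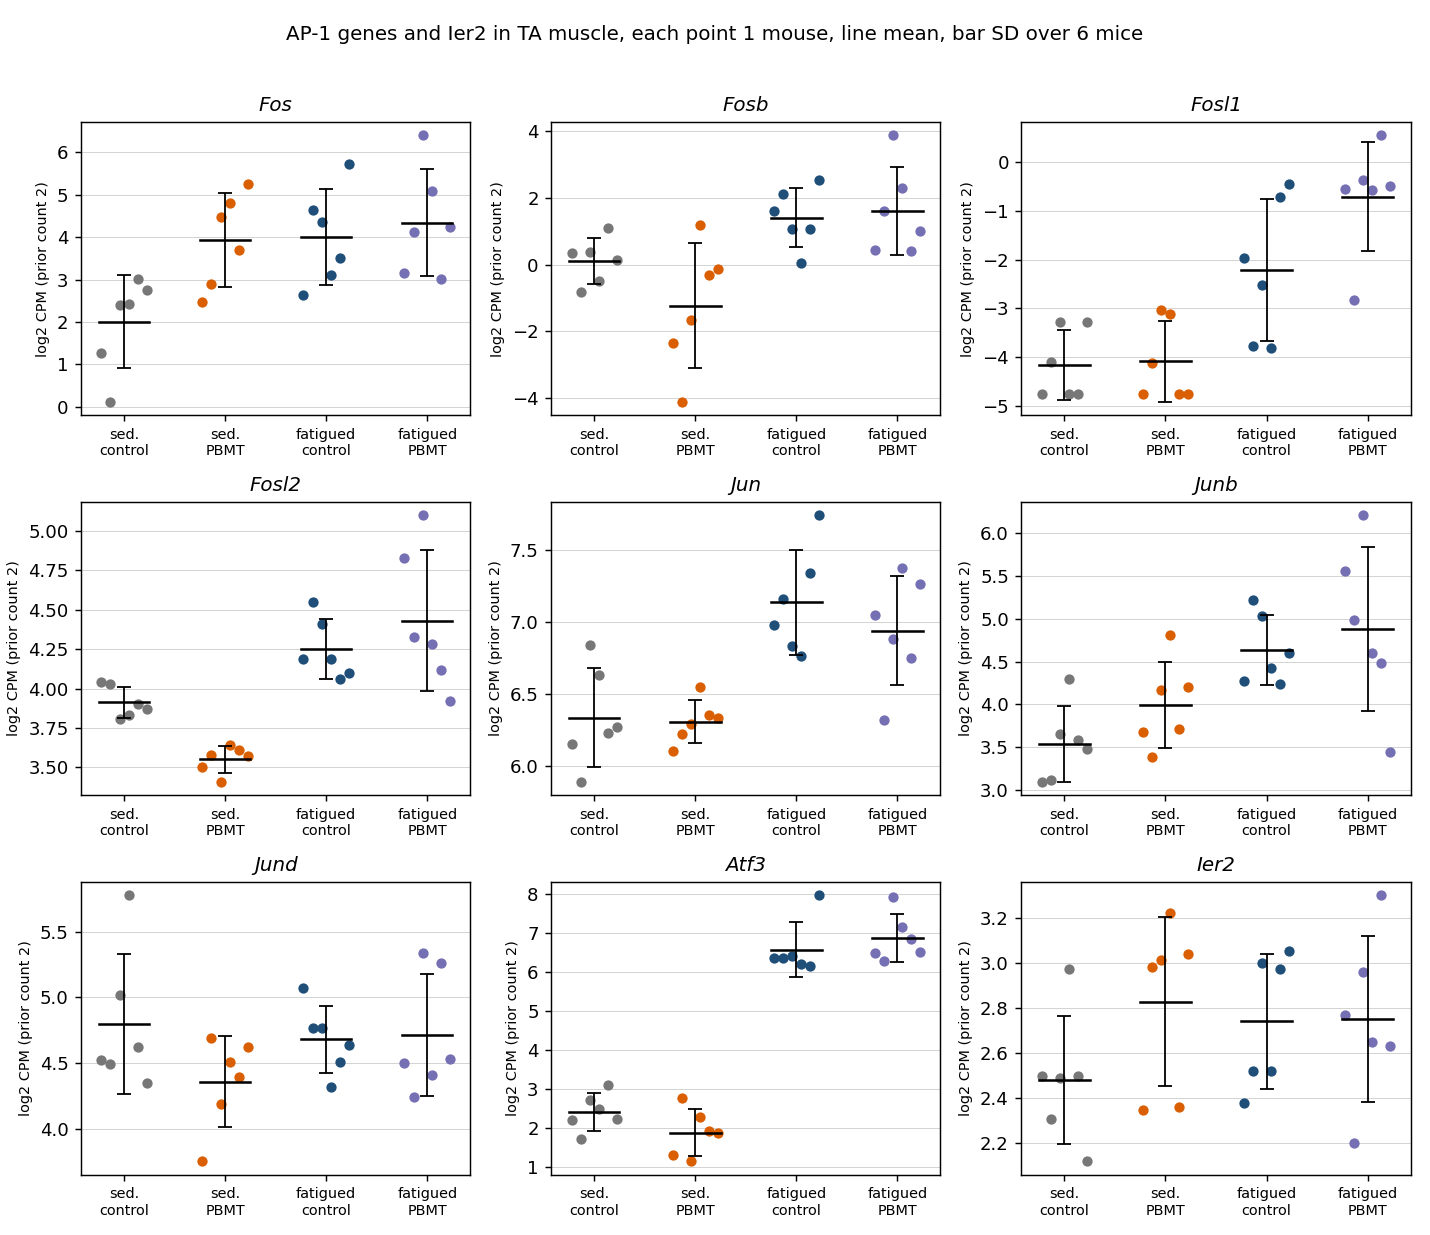
Expression of the 9 genes, where each point is 1 mouse, the vertical axis is log2 CPM with a prior count of 2 and its own range in each panel, the horizontal line is the mean and the bar the SD over 6 mice. Atf3 separates fatigued from sedentary mice in every case, Fosl2 is lower in all 6 sedentary PBMT mice than in all 6 sedentary controls, and Fos spreads widely within every group.

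Fos encodes the founding member of the family, a protein that needs a Jun partner to bind DNA (ENSMUSG00000021250, chromosome 12 of GRCm38, 85473890 to 85477273, plus strand). In sedentary control mice its expression ran from 1.05 to 8.0 CPM, with a median of 5.31. In sedentary PBMT mice it ran from 5.53 to 38 CPM, with a median of 17.5. The 4 highest treated mice lay above every control, and the treated replicates 1 and 2, at 5.53 and 7.36 CPM, lay within the control range. The mean was 4.8 ± 2.62 CPM in controls and 19.0 ± 12.7 CPM with PBMT (SD, n = 6 each), a log2 fold change of 2.00 (SE 0.548). This did not pass the threshold over all genes tested (edgeR adjusted p = 0.349; DESeq2 adjusted p = 0.0809; voom adjusted p = 0.139), and it passed with the replicate block (adjusted p = 0.0374, against up to 0.634 under the other settings and 0.659 without sedentary control replicate 3). For this gene alone, the exact permutation test of 6 mice against 6 gave a two-sided p of 0.0152.

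In fatigued mice Fos was again uneven. It ran from 6.16 to 53.2 CPM in fatigued controls, with a median of 15.9, and from 8.06 to 84.7 CPM in fatigued PBMT mice, with a median of 18.2. The treated range held all but the lowest control, and the highest value of each group came from a single mouse, control replicate 6 and PBMT replicate 3. The log2 fold change with PBMT was 0.46 (SE 0.672, edgeR adjusted p = 1.00), and without PBMT replicate 3 it was -0.25. Fatigued controls were higher than sedentary controls by 2.12 on the log2 scale (SE 0.674, edgeR adjusted p = 0.0331), with 5 of 6 fatigued mice above every sedentary mouse. That call was lost, at adjusted p-values from 0.0532 to 0.108, without fatigued control replicate 2 or 6 or without sedentary control replicate 1, 2 or 3, and passed in the other 7 of 12 such fits. It was also lost without a filter (adjusted p = 0.065) and passed in the other 6 of 7 settings. Among PBMT mice the fatigued against sedentary log2 fold change was 0.59 (SE 0.63, edgeR adjusted p = 0.521), and the ranges overlapped. In order of mean level, sedentary controls were lowest, and the other groups, sedentary PBMT, fatigued control and fatigued PBMT, did not differ beyond their spread.

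Fosb, whose long and short protein forms differ in activation, was scarce (ENSMUSG00000003545, chromosome 7, 19302696 to 19310051, minus strand). It ran from 0.525 to 2.13 CPM in sedentary control mice, with a median of 1.15, and from 0.0204 to 2.27 CPM in sedentary PBMT mice, with a median of 0.521. Of the treated mice 3 lay below every control and 1, replicate 4, lay above all. The log2 fold change was -0.64 (SE 0.641, edgeR adjusted p = 0.78), with -1.44 without sedentary PBMT replicate 4, up to -0.38 without sedentary control replicate 5, and -1.23 with voom.

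Fatigued controls expressed Fosb at 0.994 to 5.82 CPM, with a median of 2.53, and fatigued PBMT mice at 1.31 to 14.7 CPM, with a median of 2.50. The mice highest for Fos, control replicate 6 and PBMT replicate 3, were also highest for Fosb. With PBMT the log2 fold change in fatigued muscle was 0.58 (SE 0.628, edgeR adjusted p = 1.00), and without PBMT replicate 3 it was -0.28. Fatigued against sedentary muscle gave 2.63 among PBMT mice (SE 0.709, edgeR adjusted p = 0.00872). Without fatigued PBMT replicate 3 this was 1.78 (adjusted p = 0.0431), and without sedentary PBMT replicate 4 it was 3.43 (adjusted p = 0.00216). Among controls it gave 1.41 (SE 0.68, edgeR adjusted p = 0.158), which passed only when the 12 mice compared were fitted alone (adjusted p = 0.0241, against up to 0.263 under the other settings and 0.306 without fatigued control replicate 6).

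Fosl1 encodes Fra-1, a Fos protein without the transactivation domain of Fos, and is itself a known AP-1 target (ENSMUSG00000024912, chromosome 19, 5447547 to 5455946, plus strand). It was near absent at rest, with 7 counts over the 6 sedentary control mice and 9 over the 6 sedentary PBMT mice, and 3 mice of each group at 0 counts. It did not pass the filter on low counts in the sedentary comparison and was not tested there; the ratio of PBMT to control was 1.2 with a 95% counting interval from 0.398 to 3.8, which covers counting error only. The fatigued control mice held 104 counts, or 0.0337 to 0.695 CPM with a median of 0.178, and the fatigued PBMT mice 257 counts, or 0.105 to 1.43 CPM with a median of 0.66. All 6 fatigued PBMT mice and 4 of 6 fatigued controls lay above every sedentary mouse of the same treatment.

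As a ratio of counts per normalized total, Fosl1 was 11.2-fold higher in fatigued than in sedentary controls (counting interval 5.24 to 28.5) and 23.9-fold higher among PBMT mice (12.4 to 52.8). The fitted log2 fold changes were 3.37 (SE 0.895, edgeR adjusted p = 0.0101) and 4.44 (SE 0.824, edgeR adjusted p = 0.0003). Fosl1 passed the filter in these fits of all 24 mice through the fatigued mice of both treatments together. It was not tested when only the 12 mice compared were fitted. Without a filter the edgeR adjusted p-values were 0.0228 and 0.000855. Between fatigued PBMT and fatigued control mice the log2 fold change was 1.32 (SE 0.668, edgeR adjusted p = 1.00), with 2 treated mice above every control. Fosl1 overlaps Ccdc85b on the opposite strand, a gene with a median of 1389 counts per mouse, while Fosl1 had 0 counts in 3 mice of each sedentary group. The strand setting of the counting is not given in the sources used here. Reads of the overlapped stretch therefore cannot be assigned to a strand.

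Fosl2 encodes Fra-2, which is more stable between stimuli than Fos (ENSMUSG00000029135, chromosome 5, 32135801 to 32157842, plus strand). Its expression ran from 14.0 to 16.5 CPM in sedentary control mice, with a median of 14.7, and from 10.6 to 12.5 CPM in sedentary PBMT mice, with a median of 11.9. Every treated mouse lay below every control, by a narrow but complete gap. The log2 fold change was -0.36 (SE 0.0751), and the exact permutation test gave a two-sided p of 0.00216, the smallest that 6 mice against 6 allow. Over all genes tested it did not pass in edgeR (adjusted p = 0.119), and it passed in DESeq2 (adjusted p = 0.00209), in limma voom (adjusted p = 0.0161) and in edgeR without sedentary control replicate 4 (adjusted p = 0.038). Over all alternatives the adjusted p ran from 0.00209 to 0.626.

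In fatigued mice Fosl2 stood higher, at 16.7 to 23.4 CPM in controls, with a median of 18.2, and at 15.1 to 34.4 CPM with PBMT, with a median of 19.8. The treated range enclosed the control range, and PBMT replicates 1 and 3 lay above all controls. With PBMT the log2 fold change was 0.23 (SE 0.181, edgeR adjusted p = 1.00). Fatigued PBMT mice all lay above sedentary PBMT mice, by 0.94 on the log2 scale (SE 0.14, edgeR adjusted p = 2.23e-05). Fatigued controls also lay above all sedentary controls, by 0.34 (SE 0.138, edgeR adjusted p = 0.0842), which passed only with the 12 mice compared fitted alone (adjusted p = 0.0168, against up to 0.115 under the other settings and 0.186 without fatigued control replicate 2). The difference of the PBMT effects between fatigued and sedentary muscle was 0.59 on the log2 scale (SE 0.196), and it did not pass over all genes tested (edgeR adjusted p = 0.946). By mean level the order was sedentary PBMT, sedentary control, fatigued control and fatigued PBMT, and the last 2 did not differ beyond their spread.

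Jun encodes the Jun protein, which is switched on by Jun kinases and can act as a dimer with itself (ENSMUSG00000052684, chromosome 4, 95049034 to 95052222, minus strand). It ran from 59.1 to 114 CPM in sedentary control mice, with a median of 76.0, and from 68.6 to 93.4 CPM in sedentary PBMT mice, with a median of 79.1. The treated mice lay inside the range of the controls. The log2 fold change was -0.05 (SE 0.128, edgeR adjusted p = 0.932).

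Fatigued control mice expressed Jun at 108 to 214 CPM, with a median of 134, and fatigued PBMT mice at 79.8 to 165 CPM, with a median of 125. The PBMT range reached lower and the control range higher, through control replicate 6. Fatigued against sedentary muscle differed by 0.81 on the log2 scale in controls (SE 0.176, edgeR adjusted p = 0.00255) and by 0.67 with PBMT (SE 0.176, edgeR adjusted p = 0.0067). Of the fatigued mice, 4 of 6 controls and 5 of 6 PBMT mice lay above every sedentary mouse of the same treatment, and both calls held in all 12 fits that left out a mouse. With PBMT the log2 fold change in fatigued muscle was -0.19 (SE 0.194, edgeR adjusted p = 1.00). Jun overlaps Junos, an antisense gene with a median of 355.5 counts per mouse, whose reads cannot be told apart without the strand setting.

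Junb, a weaker activator than Jun that is itself an immediate early gene and is known to help maintain muscle mass, ran from 8.55 to 19.7 CPM in sedentary control mice, with a median of 11.5 (ENSMUSG00000052837, chromosome 8, 84974484 to 84978718, minus strand). In sedentary PBMT mice it ran from 10.5 to 28.1 CPM, with a median of 15.5. The ranges overlapped except for the highest treated mouse, replicate 4. The log2 fold change was 0.49 (SE 0.243, edgeR adjusted p = 0.652).

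In fatigued controls Junb ran from 18.8 to 37.2 CPM, with a median of 22.9, and in fatigued PBMT mice from 10.8 to 74.1 CPM, with a median of 28.1. The treated mice were spread on both sides of the controls, with replicate 6 lowest and replicate 3 highest. PBMT gave a log2 fold change of 0.45 in fatigued muscle (SE 0.391, edgeR adjusted p = 1.00). Fatigued exceeded sedentary muscle by 1.09 on the log2 scale in controls (SE 0.352, edgeR adjusted p = 0.0352) and by 1.06 with PBMT (SE 0.349, edgeR adjusted p = 0.028). These calls were close to the threshold: the first passed in 4 of 12 fits that left out a mouse (fatigued control replicates 1, 4 and 5 and sedentary control replicate 4), with adjusted p-values up to 0.0785 without fatigued control replicate 2, and the second in 7 of 12, with values up to 0.109 without fatigued PBMT replicate 3. Under other settings the second had an adjusted p of 0.0592 without a filter and 0.132 with voom, where the log2 fold change was 0.62, did not pass with the 12 mice compared fitted alone either, and passed in the other 4 of 7 settings. The exact permutation test for the second gave a two-sided p of 0.0693. The first had an adjusted p of 0.0702 without a filter and passed in the other 6 of 7 settings. The second was also lost without fatigued PBMT replicate 1 or sedentary PBMT replicate 1, 2 or 5, at adjusted p-values from 0.059 to 0.0614. Junb lies against Prdx2 on the opposite strand, a gene with a median of 6015 counts per mouse, so its counts are uncertain to that extent.

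Jund, the member with the most constant expression in many tissues, was the second most expressed Jun gene at rest (ENSMUSG00000071076, chromosome 8, 70698949 to 70700616, plus strand). Its expression ran from 20.4 to 54.9 CPM in sedentary control, 13.4 to 25.7 CPM in sedentary PBMT, 20 to 33.4 CPM in fatigued control and 18.9 to 40.6 CPM in fatigued PBMT mice, with medians of 23.7, 21.8, 26.1 and 22.8 CPM. All 4 ranges overlapped, and sedentary control replicate 4 was the highest of the 24 mice. No comparison passed, with log2 fold changes of -0.49 (PBMT, sedentary), 0.08 (PBMT, fatigued), -0.19 (fatigued against sedentary, control) and 0.39 (fatigued against sedentary, PBMT). That mouse stood apart over all genes: the chi-square per degree of freedom between its counts and those of another sedentary control ran from 431 to 458, against 13.3 to 73.2 among the other sedentary controls, and its fast fiber sum was 169892 CPM, against at most 126518 CPM in them. Without it the third of these values was 0.08 and the first -0.23, and the PBMT values at rest were 0.67 for Junb, 0.48 for Ier2 and -0.38 for Fosl2. The antisense gene Gm11175 overlaps it, with a median of 22 counts per mouse.

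Atf3 encodes a stress-induced leucine zipper protein that pairs with Jun proteins and often represses (ENSMUSG00000026628, chromosome 1, 191170296 to 191218039, minus strand). Sedentary control mice expressed it at 3.28 to 8.6 CPM, with a median of 5.09, and sedentary PBMT mice at 2.19 to 6.8 CPM, with a median of 3.7. The groups overlapped, and the log2 fold change with PBMT was -0.48 (SE 0.263, edgeR adjusted p = 0.668). Fatigued control mice stood at 70.7 to 249.9 CPM, with a median of 82.1, and fatigued PBMT mice at 77.2 to 244 CPM, with a median of 102. The lowest fatigued mouse was thus several times above the highest sedentary mouse.

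Atf3 had the largest change among the 9 genes between fatigued and sedentary muscle, at 4.28 on the log2 scale in controls (SE 0.399, edgeR adjusted p = 5.5e-07) and 5.00 with PBMT (SE 0.414, edgeR adjusted p = 3.95e-08). All 6 fatigued mice exceeded all 6 sedentary mice in each case (exact permutation test, two-sided p = 0.00216). Within the fatigued controls, 5 mice lay between 70.7 and 84.6 CPM and replicate 6 at 249.9 CPM. Without that mouse the log2 fold change over sedentary controls was 3.84. In fatigued muscle PBMT gave 0.24 (SE 0.383, edgeR adjusted p = 1.00), and -0.06 without PBMT replicate 3.

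Ier2, a small nuclear protein gene induced with Fos in many cells, was called in no comparison (ENSMUSG00000053560, chromosome 8, 84661331 to 84662852, minus strand). Its expression ran from 4.32 to 7.77 CPM in sedentary control mice, 5.05 to 9.3 CPM in sedentary PBMT mice, 5.17 to 8.27 CPM in fatigued controls and 4.56 to 9.84 CPM in fatigued PBMT mice. The ranges all overlapped, although 4 of 6 sedentary PBMT mice lay above every sedentary control. The log2 fold changes were 0.37 with PBMT at rest (edgeR adjusted p = 0.64), 0.03 with PBMT after fatigue, 0.26 for fatigued against sedentary controls and -0.08 for the same among PBMT mice.

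**Figure D2:**
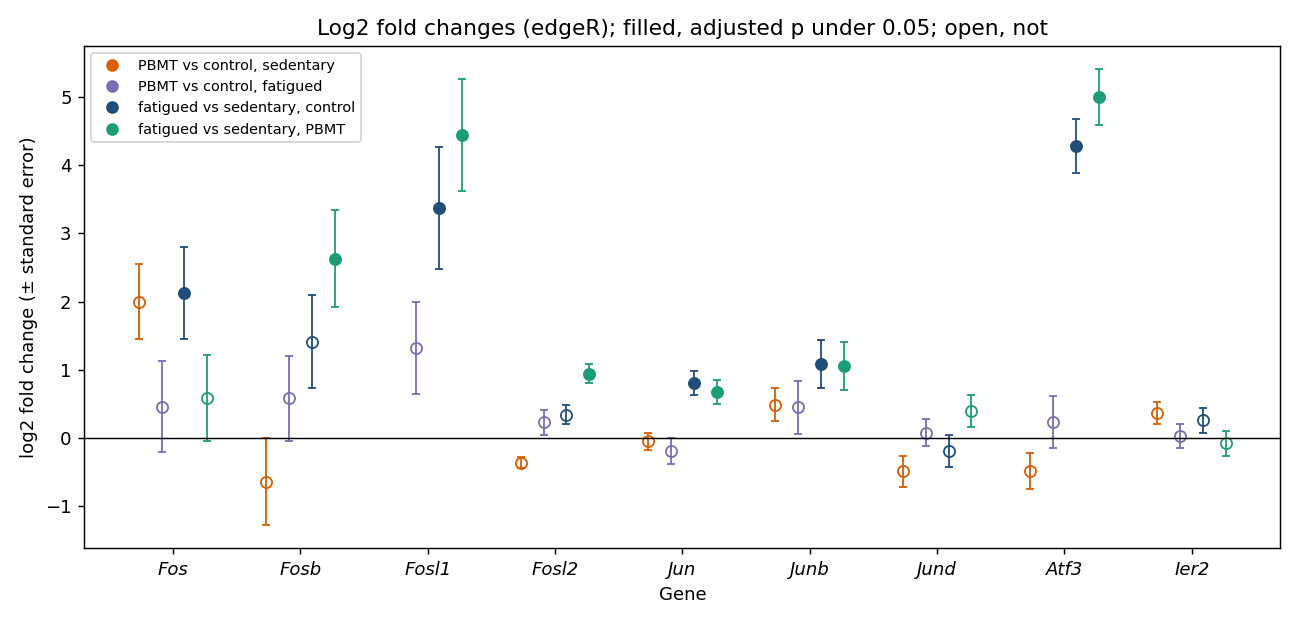
Log2 fold changes of the 9 genes from edgeR, with bars of 1 standard error, where filled points passed an adjusted p of 0.05 over all genes tested and open points did not, and Fosl1 has no point for PBMT at rest because it was not tested there. The filled points all belong to fatigued against sedentary muscle, with Atf3 at 4.28 and 5.00.

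Set side by side, 0 of the 8 genes tested passed in edgeR for PBMT in sedentary muscle, where 4 of 14177 genes (0.0282%) did. At an unadjusted p under 0.05 there were 3, Fos, Fosl2 and Ier2, where 7.63% of all genes were, and DESeq2 and limma voom each called 1, Fosl2, among 60 and 50 genes in all. Between PBMT and control at rest, 1 of 9 genes, Fosl2, had ranges that did not overlap, against 0.48% of all genes tested. In fatigued muscle 0 of 9 passed (0.0% of 14574 genes in edgeR), 0 at an unadjusted p under 0.05, where 1.58% of all genes were, and 0 by DESeq2 or voom, and ranges failed to overlap for 0 of 9, against 0.0274% of all genes. For the difference of the PBMT effects 0 of 9 passed, against 0.00662% of 15108 genes, with 1, Fosl2, at an unadjusted p under 0.05, where 4.4% of all genes were, and 0 by DESeq2 or voom.

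Fatigued exceeded sedentary control muscle for 5 of 9 genes past the threshold, Fos, Fosl1, Jun, Junb and Atf3, where 9.1% of all genes tested were called higher, and 0 of 9 were lower, where 9.49% were. All fatigued lay above all sedentary control mice for Fosl2 and Atf3, 2 of 9, against 4.08% of all genes that were so placed in this direction. Among PBMT mice 6 of 9 were called higher, Fosb, Fosl1, Fosl2, Jun, Junb and Atf3, against 14.1% of all genes, and 0 of 9 lower, against 12.7%. In both comparisons Fosl1 passed the filter on low counts through the fatigued mice, and it was also called without a filter. All fatigued lay above all sedentary PBMT mice for 3 of 9, Fosl1, Fosl2 and Atf3, against 5.98% in this direction. The median log2 fold change of the genes tested was -0.20 and 0.24 for PBMT at rest and after fatigue, and 1.09 and 0.94 for fatigued against sedentary control and PBMT muscle, beside -0.002, 0.004, -0.012 and 0.002 over all genes. The comparisons share groups of mice with each other, and the members were not chosen independently of earlier results.

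Levels of different genes were compared as CPM per kilobase of exon (RPKM). In sedentary control mice the mean order was Jun at 25.9 ± 6.34, Jund at 17.8 ± 7.85, Junb at 5.24 ± 1.77, Ier2 at 3.71 ± 0.767, Atf3 at 2.57 ± 0.864, Fos at 2.04 ± 1.11, Fosl2 at 1.56 ± 0.11, Fosb at 0.184 ± 0.0905 and Fosl1 at 0.0125 ± 0.0158 RPKM (SD, n = 6 each). Jun was above Jund in 5 of 6 mice, and Jund above Junb in 6 of 6, whereas Atf3, Fos and Fosl2 overlapped. In fatigued controls Atf3 stood at 49.8 ± 32.5 and Jun at 45.3 ± 12.3 RPKM (SD, n = 6), and Atf3 was above Jun in 3 of 6 mice, so these did not differ beyond their spread. Fos stood at 8.85 ± 7.41 RPKM there and exceeded Fosl2 in 6 of 6 mice. Fosl1 remained the least expressed in fatigued controls, at 0.139 ± 0.139 RPKM, and in fatigued PBMT mice it exceeded Fosb in 3 of 6.

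Mice of a group differed in Fos far more than in most genes. The SD of its log2 CPM was 1.09, 1.10, 1.13 and 1.27 in the 4 groups, above that of 98.9%, 98.9%, 98.8% and 99.1% of the genes tested, whose median SD was 0.25, 0.19, 0.19 and 0.23. Fosb spread more than Fos in sedentary PBMT and fatigued PBMT mice, with SDs of 1.88 and 1.32, and Fosl1 did in fatigued controls, with 1.45. Counts were low for Fosb in sedentary PBMT mice (1 to 115) and for Fosl1 in fatigued controls (2 to 41). Counting error is part of those SDs. In contrast Fosl2 in sedentary mice was among the steadier genes, with an SD of 0.10 in controls and 0.08 with PBMT, at the 9.11th and 13.2nd percentiles. After fatigue its SD was 0.19 in controls and 0.45 with PBMT.

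Covariation between mice was measured after subtracting each group's mean from log2 CPM, over the 36 pairs of the 9 genes and all 24 mice. Of these pairs, 32 had a positive Pearson r, the median r was 0.32, and 3 passed the permutation test after Benjamini-Hochberg adjustment over the 36. By Spearman 4 passed: Fos and Fosb, Jund and Ier2, and the pairs Fos and Junb (rho 0.60, adjusted permutation p = 0.0479) and Jund and Atf3 (rho 0.58, adjusted permutation p = 0.0479), which did not pass by Pearson (r of 0.52 and 0.45, adjusted permutation p = 0.0958 and 0.102). Fos and Fosb had the highest r of the 36, at 0.74 (permutation p = 5e-05, adjusted p = 0.0018), with a Spearman rho of 0.77 (permutation p = 0.00011, adjusted p = 0.00396). It held within each project, at 0.66 in sedentary mice (permutation p = 0.0226, n = 12) and 0.86 in fatigued mice (permutation p = 0.00122, n = 12), and r was 0.67 (permutation p = 0.00236) without the 2 mice farthest from the median of Fos. Without those mice 0 of the 36 pairs, this one included, passed after adjustment. Within the 4 groups r was 0.66, 0.75, 0.68 and 0.98, and only the last, in fatigued PBMT mice, had an exact permutation p under the threshold (0.00417, n = 6).

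**Figure D3:**
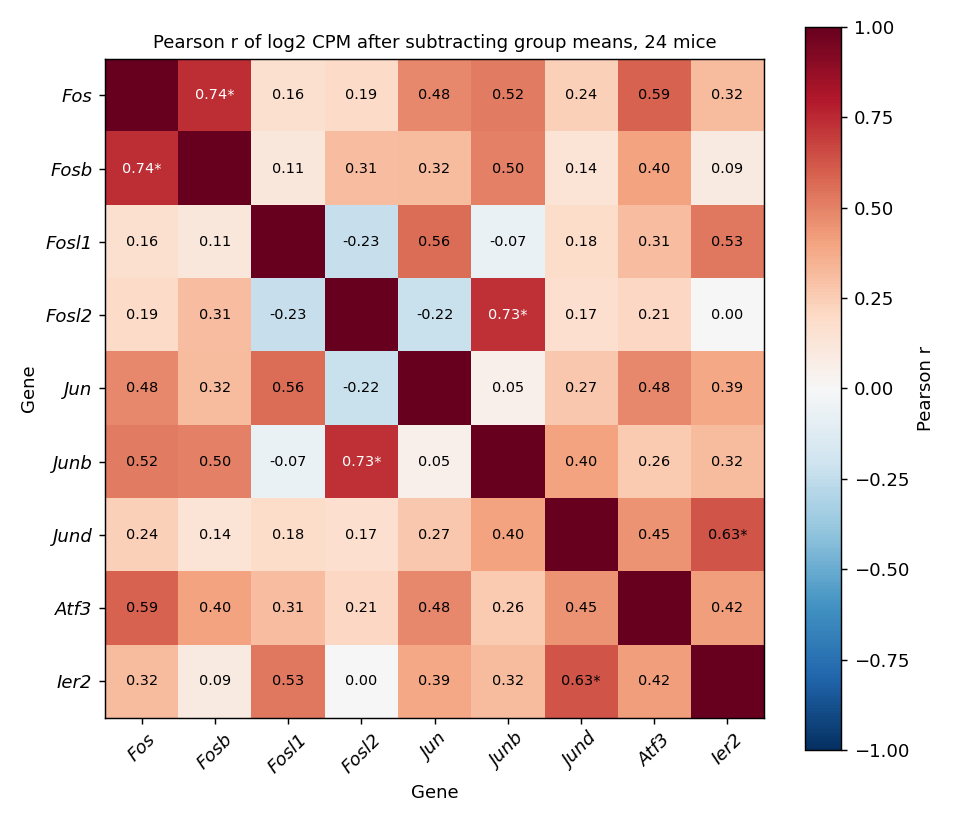
Pearson r of log2 CPM between each pair of the 9 genes over 24 mice, after subtracting group means. Red is positive and blue negative, and a star marks an adjusted permutation p under 0.05 over the 36 pairs; 3 pairs carry one, with Fos and Fosb highest at 0.74.

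Jund and Ier2 had an r of 0.63 (permutation p = 0.00208, adjusted p = 0.0271) and a rho of 0.60 (permutation p = 0.00338, adjusted p = 0.0479). The r was 0.73 in sedentary mice (permutation p = 0.0085, n = 12) and 0.51 in fatigued mice (permutation p = 0.137, n = 12), and 0.55 without the 2 mice farthest from the median of Jund. Within groups it was 0.91 in sedentary control, 0.63 in sedentary PBMT, -0.28 in fatigued control and 0.86 in fatigued PBMT mice (exact permutation p = 0.00833, 0.156, 0.574 and 0.0139, n = 6 each), so the fatigued controls did not share the direction. Fosl2 and Junb had an r of 0.73 (permutation p = 0.00226, adjusted p = 0.0271), but a rho of only 0.39 (permutation p = 0.0859, adjusted p = 0.221). The r was 0.95 in fatigued mice (permutation p = 0.0001, n = 12), with 0.91 in controls (exact permutation p = 0.025, n = 6) and 0.96 with PBMT (exact permutation p = 0.00139, n = 6). In sedentary mice it was -0.32 (permutation p = 0.328, n = 12), with -0.81 in controls (exact permutation p = 0.0389, n = 6) and 0.18 with PBMT (exact permutation p = 0.701, n = 6). Over all groups without fatigued PBMT replicates 3 and 6, the mice farthest from the median of Fosl2, r was 0.45 (permutation p = 0.0493). Fos and Atf3 had an r of 0.59 that did not pass (permutation p = 0.00592, adjusted p = 0.0533), with a rho of 0.57 (permutation p = 0.00812, adjusted p = 0.0585). It was 0.33 in sedentary mice, with 0.83 in controls (exact permutation p = 0.0333, n = 6) and -0.06 with PBMT (exact permutation p = 0.904, n = 6), 0.78 in fatigued mice and 0.41 without the 2 mice farthest from the median of Fos.

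The same mice recurred at the extremes. Fatigued control replicate 6 was the highest of its group for 6 of 9 genes, Fos, Fosb, Fosl1, Jun, Atf3 and Ier2, and fatigued PBMT replicate 3 for 6 of 9, Fos, Fosb, Fosl2, Junb, Jund and Atf3. Sedentary PBMT replicate 4 was highest for 5 of 9. Fatigued PBMT replicate 2 was the lowest for 5 of 9. Sedentary PBMT replicate 1 was the lowest for 4 of 9, Fos, Jun, Jund and Ier2, and tied with replicates 5 and 6 at 0 counts for Fosl1. Run times of single mice were not used here. Leaving out 1 mouse left 1 pair past the threshold without sedentary PBMT replicate 1 or 4 or fatigued PBMT replicate 2, 3, 4 or 6, and 5 pairs without sedentary control replicate 6, sedentary PBMT replicate 2 or fatigued PBMT replicate 5. The r of Fos and Fosb stayed between 0.68 and 0.79.

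Among 15107 other genes, those with a pattern close to that of Fos over the 24 group-centred mice included Ier5 (r = 0.78), Otud1 (0.77), Egr1 (0.76) and Trib1 (0.71), while the median r was near 0 and the 99th percentile 0.44. Ier5 and Egr1 are immediate early genes, Otud1 encodes a deubiquitinase and Trib1 a pseudokinase. Fosb ranked 5th, Atf3 24th, Junb 50th, Jun 91st and Fosl1 3072nd in the same order. Within projects the r of Otud1 was 0.71 in sedentary and 0.83 in fatigued mice, whereas that of Trib1 was 0.29 and 0.93.

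Other genes of the pathway were read from 5 lists, some genes standing in more than 1. The calls of each list between fatigued and sedentary muscle stand beside shares over all genes tested. Those shares were 9.1% higher and 9.49% lower in controls, and 14.1% higher and 12.7% lower with PBMT. With PBMT at rest edgeR called 2 of their 105 entries tested, and DESeq2 and voom called 5 each. There 24 entries had an unadjusted p under 0.05, where 7.63% of all genes did. For PBMT after fatigue edgeR called 0 of 107, with 4 at an unadjusted p under 0.05 and 1 call by DESeq2 and 0 by voom. Over all genes 1.58% had such a p there. For the difference of the PBMT effects edgeR called 0 of 107, with 10 at an unadjusted p under 0.05 and 0 by DESeq2 or voom. The share of all genes with such a p was 4.4%.

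Of 19 genes for leucine zipper partners of AP-1 proteins, 16 were tested, and for PBMT at rest 0 passed in edgeR, 3 had an unadjusted p under 0.05, and DESeq2 and voom called 0. Between fatigued and sedentary controls 6 were higher and 2 lower, and among PBMT mice 8 were higher and 2 lower, with median log2 fold changes of 0.14 and 0.19. Maff, a small Maf protein gene, had the largest fold change of the list, from 3.78 ± 0.709 to 15.7 ± 3.13 CPM in controls (SD, n = 6; log2 fold change 2.05, edgeR adjusted p = 0.000353) and from 2.5 ± 0.579 to 25.1 ± 19.4 CPM with PBMT (SD, n = 6; 3.33, adjusted p = 1.29e-06). Mafk was higher too (1.18, adjusted p = 8.15e-06, and 1.70, adjusted p = 2.48e-08). Maf (0.54 and 0.47), Mafg (0.44 and 0.54) and the cAMP-responsive Crem (0.82 and 1.06) were also higher in both. For PBMT the largest change of the list was also that of Maff, at -0.59 at rest (edgeR adjusted p = 0.349) and 0.68 after fatigue (adjusted p = 1.00).

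Of 22 genes for kinases and factors upstream of AP-1, all were tested and changes were small. For PBMT at rest 0 passed in edgeR, with 1 at an unadjusted p under 0.05 and 0 by DESeq2 or voom, and between fatigued and sedentary muscle 1 was higher and 3 lower in controls and 1 higher and 4 lower with PBMT. Map2k3, a kinase upstream of p38, was the one higher (0.34, edgeR adjusted p = 0.00181, and 0.41, adjusted p = 0.000146), and Mrtfa, a coactivator of serum response factor, had the largest change (-0.48, adjusted p = 0.0335, and -0.60, adjusted p = 0.00614). Crtc3 (-0.28 and -0.39) and Mapk8, a Jun kinase gene (-0.23 and -0.39), were also lower. Over all genes 9.1% were higher and 9.49% lower in controls, and 14.1% and 12.7% with PBMT, so these counts do not set the list apart. Median log2 fold changes were -0.06 and -0.05. The largest values for PBMT were 0.24 for Mrtfb at rest and -0.19 for Rps6ka1 after fatigue, and for their difference 0.19 for Map2k2.

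Other immediate early genes held the calls that edgeR made for PBMT in these lists. Of 28, 26 were tested, and at rest 2 rose with PBMT: Ccn1, a secreted matrix protein gene, from 20.6 ± 1.81 to 45 ± 8.99 CPM (SD, n = 6; log2 fold change 1.14, edgeR adjusted p = 0.000384), and Egr1, a zinc finger factor gene, from 2.25 ± 0.566 to 17.7 ± 10.4 CPM (SD, n = 6; 2.98, adjusted p = 0.0139). At rest 11 of the 26 had an unadjusted p under 0.05, and DESeq2 and voom each called 4. After fatigue the largest value was that of Socs3 (1.34, adjusted p = 1.00). Between fatigued and sedentary muscle 11 were higher and 2 lower in controls, and 12 higher and 3 lower with PBMT, with medians of 0.52 and 0.43. Nr4a3, an orphan nuclear receptor gene, had the largest change, from 7.8 ± 5.46 to 209 ± 82.1 CPM in controls (SD, n = 6; 4.75, adjusted p = 4.71e-05) and from 15.3 ± 13.5 to 235 ± 88.7 CPM with PBMT (SD, n = 6; 3.95, adjusted p = 0.000103). Pim1 (1.19 and 1.08) and Nr4a2 (2.11 and 2.80) were higher in both, as was Maff, and Egr1 in controls only (2.93, adjusted p = 0.00141, against 0.67 with PBMT, adjusted p = 0.356), a difference tested as the difference of PBMT effects (-2.26, adjusted p = 0.946).

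Of 21 genes for brakes on immediate early signalling, all tested, 0 passed in edgeR for PBMT at rest, with 7 at an unadjusted p under 0.05 and 1 call each by DESeq2 and voom, and the largest change was that of Dusp10, a phosphatase of stress kinases (1.05, edgeR adjusted p = 0.0896). Fatigued against sedentary muscle gave 9 higher and 1 lower in controls and 9 higher and 2 lower with PBMT, with medians of 0.29 and 0.21. Dusp5, a nuclear ERK phosphatase gene, had the largest change (1.80, adjusted p = 0.000479, and 2.30, adjusted p = 1.69e-05), and Dusp2 (1.07 and 1.63), Dusp4 (1.18 and 0.94), Dusp16 (0.37 and 0.57) and Trib1 (0.92 and 1.34) were higher in both. The largest value for PBMT after fatigue was that of Dusp2 (0.96, adjusted p = 1.00), and for the difference that of Dusp10 (-0.89, adjusted p = 0.946). Zfp36, which promotes decay of short-lived mRNAs, was lower in both (-0.95, adjusted p = 0.00904, and -0.85, adjusted p = 0.0118), and Dusp1 was the other gene lower with PBMT.

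Of 23 textbook AP-1 target genes, Fosl1 among them, 20 to 22 were tested. For PBMT at rest 0 passed in edgeR, with 2 at an unadjusted p under 0.05 and 0 by DESeq2 or voom, and 8 of 20 had a log2 fold change above 0 (median -0.05), against 49.6% of all genes. With PBMT after fatigue 21 of 22 did (median 0.23), against 52.0% of all genes, as did all 9 interstitial mesenchymal and all 5 tendon markers, and genes of a list are not independent of each other. Mmp13, a collagenase gene, had the largest values, at 2.49 at rest and -1.47 after fatigue, with a difference of -3.96, and none of these passed. Between fatigued and sedentary muscle 6 were higher in controls and 12 with PBMT, and 0 were lower, with medians of 0.55 and 0.85. Hbegf, a growth factor gene, was higher by 1.55 (adjusted p = 3.63e-05) and 2.28 (adjusted p = 1.69e-07), and Hmox1, which degrades heme, by 1.47 (adjusted p = 0.000167) and 2.15 (adjusted p = 1.01e-06). Vegfa was also higher in both (0.48 and 0.53). Mmp2, a gelatinase gene, was higher with PBMT (1.10), with a value of 0.61 in controls (adjusted p = 0.0534) and a difference of 0.49 between these (adjusted p = 0.946).

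Markers of other cell types were read along the same split. Over all genes edgeR called 9.1% higher and 9.49% lower in fatigued than in sedentary controls, and 14.1% and 12.7% with PBMT. An unadjusted p under 0.05 was found for 32.2% of all genes in controls, and for 4.4% in the difference of the PBMT effects. In bulk muscle, fewer cells of a type and less RNA per cell cannot be told apart. All 6 neutrophil markers were called lower by edgeR in fatigued than in sedentary muscle, in controls and with PBMT, where voom called 6 and 2. Only 2 of the 6 passed the filter on low counts within fatigued muscle. The rest passed it in these fits through the sedentary mice, where they are high. Their values without a filter are not reported here. Their summed level ran from 26.4 to 57.4 CPM in sedentary controls, 1.18 to 61.5 CPM in sedentary PBMT mice (replicates 1 and 2 at 1.18 and 5.07), 0.235 to 3.08 CPM in fatigued controls and 0.484 to 2.01 CPM in fatigued PBMT mice. S100a9 was the most abundant, and Ly6g was at 0 in all fatigued controls and Ngp in all fatigued PBMT mice. Interstitial mesenchymal markers were called higher by edgeR for 1 of 9 genes in controls, where 8 of 9 values were above 0 (median 0.52), 4 had an unadjusted p under 0.05, and DESeq2 called 2 and voom 4. With PBMT edgeR called 8 of 9, and it called 0 of 9 for the difference of the PBMT effects, with 2 at an unadjusted p under 0.05. Their summed level was 893 ± 147 CPM in sedentary and 1325 ± 281 CPM in fatigued controls, and 752 ± 224 and 1589.8 ± 882 CPM with PBMT (SD, n = 6); Col3a1 was the most abundant and none was at 0. Of 8 myeloid markers, led by Lyz2, edgeR called 0 between fatigued and sedentary controls, with 1 at an unadjusted p under 0.05, 0 calls by DESeq2 and 1 by voom, and 7 of 8 values were above 0 (median log2 fold change 0.42). Their sums were 71.0 ± 26.5 CPM in sedentary and 82.8 ± 23.5 CPM in fatigued controls (SD, n = 6). Among PBMT mice 6 were called higher, with sums of 45.3 ± 12.5 and 87.9 ± 46.3 CPM (SD, n = 6). For the difference of the PBMT effects edgeR called 0 of the 8, with 2 at an unadjusted p under 0.05 and 0 by DESeq2 or voom. Of 7 satellite cell markers, led by Sdc4, 2 were higher in each comparison of fatigued with sedentary muscle, and 1 lower with PBMT.

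For PBMT against control edgeR called 0 of 79 markers of the 13 lists at rest, with 10 at an unadjusted p under 0.05, 1 call by DESeq2 and 2 by voom. Over all genes 7.63% had such a p at rest. All 8 myeloid markers had values below 0 there (median log2 fold change -0.63, 4 at an unadjusted p under 0.05). So did all 9 interstitial mesenchymal markers (median -0.26, 2 at an unadjusted p under 0.05). The 5 neutrophil markers tested were also below 0 (median -0.43), with 0 at an unadjusted p under 0.05. Of 7 satellite cell markers 4 were above 0. Among the others, Sdc4 (-0.33, edgeR adjusted p = 0.433) was lower in all PBMT mice than in all controls. The relation of Fosl2 to these markers was not tested. After fatigue edgeR called 0 of 76, with 1 at an unadjusted p under 0.05, where 1.58% of all genes were, and 0 by DESeq2 or voom. Values there were above 0 for all 9 interstitial mesenchymal (median 0.17), all 5 tendon (0.26), all 6 slow fiber (0.51) and 7 of 8 myeloid markers (0.12), and below 0 for all 6 Schwann cell markers (-0.44). The part of these cells in the differences of AP-1 genes was not tested. The remaining lists, for endothelial, smooth muscle and pericyte, erythrocyte, adipocyte, Schwann, keratinocyte and tendon markers, gave 0 to 4 calls each in either comparison of fatigued with sedentary muscle. Of 9 fast fiber markers 4 were higher in controls and 3 with PBMT, and of 6 slow fiber markers 1 was lower in controls. The shares over all genes for fatigued against sedentary muscle are those given above. The keratinocyte sum was highest in sedentary PBMT replicates 4 (29.0 CPM) and 2 (10.2 CPM), against at most 5.74 CPM in sedentary controls. Over the 24 mice, the deviation of Fos and Atf3 from their group means was set against the total count, the normalization factor and the 13 marker sums, 30 relations in all. None passed after adjustment (smallest adjusted permutation p = 0.695), and the closest for Fos was the erythrocyte sum, at r = -0.44 (permutation p = 0.0462) and rho = -0.48 (permutation p = 0.0271, adjusted p = 0.81), with -0.42 in sedentary and -0.46 in fatigued mice and -0.45 without the 2 mice farthest from the median of Fos.

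Promoter sequences were at hand for 7 of the 9 genes, from RefSeq on GRCm38.p6, as the 250 bases before the annotated start. They are shown for Fos and Fosb, the pair that covaried most, for Atf3, which differed most, and for Jun, the most expressed of the genes at rest. Motifs searched on both strands were the CRE (TGACGTCA), its form TGACATCA, the TRE (TGACTCA), the first 5 letters of the CRE (TGACG, which the full CRE contains) and the CArG box. Capitals mark every match. The choice of motifs followed a look at these sequences.
Fos, chr12:85473640-85473889, plus strand: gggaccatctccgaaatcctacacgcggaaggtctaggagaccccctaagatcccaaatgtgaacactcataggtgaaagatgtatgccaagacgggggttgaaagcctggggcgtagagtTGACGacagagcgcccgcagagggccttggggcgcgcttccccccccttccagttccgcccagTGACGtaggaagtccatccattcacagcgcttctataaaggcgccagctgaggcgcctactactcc
Fosb, chr7:19310046-19310295, minus strand: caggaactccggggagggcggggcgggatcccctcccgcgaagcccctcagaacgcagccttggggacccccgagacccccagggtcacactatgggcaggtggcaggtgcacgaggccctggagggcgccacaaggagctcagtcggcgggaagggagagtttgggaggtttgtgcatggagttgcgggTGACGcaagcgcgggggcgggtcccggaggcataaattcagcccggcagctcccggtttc
Atf3, chr1:191183334-191183583, minus strand: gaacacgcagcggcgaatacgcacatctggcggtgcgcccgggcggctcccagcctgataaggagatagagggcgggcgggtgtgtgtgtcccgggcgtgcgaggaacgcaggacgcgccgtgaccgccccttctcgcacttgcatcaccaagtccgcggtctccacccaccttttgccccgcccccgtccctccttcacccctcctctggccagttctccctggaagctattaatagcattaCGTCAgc
Jun, chr4:95052223-95052472, minus strand: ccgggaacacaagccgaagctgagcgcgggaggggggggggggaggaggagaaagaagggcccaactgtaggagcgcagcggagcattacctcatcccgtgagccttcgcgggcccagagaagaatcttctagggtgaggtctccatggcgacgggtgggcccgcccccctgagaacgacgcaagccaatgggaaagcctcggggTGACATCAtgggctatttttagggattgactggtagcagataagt

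The letters TGACG occurred 2 times before Fos, at 129 and 66 bases before the start counted from the first letter, and once each before Fosb (60 bases), Junb (106 bases) and, on the other strand, Atf3 (7 bases). They were present in 17.8% of 32851 RefSeq windows of the same length. TGACATCA occurred 45 bases before Jun and in 2.93% of the windows. None of the 7 windows held a full CRE (1.55% of windows), a TRE (4.46%) or a CArG box (1.47%). The search ended 250 bases before the start, so it cannot show whether such elements lie farther upstream. The windows before Atf3 and Fosl2 lie within the longer GENCODE genes, and 7 and 250 of their 250 bases overlap an exon of the gene, so the Fosl2 window is wholly exonic. In the Fosb window 6 bases overlap an exon of the gene. The Jund window ends at 70697738, well short of the GENCODE start of Jund at 70698949, so it is not the sequence next to that start. A match describes letters only, and no binding was measured here.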

How the data were processed

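RNA of the left TA muscle was sequenced for 24 mice, 6 in each of 4 groups. The deposited files hold whole-number counts per Ensembl gene, 1 file per mouse, made by the authors from poly(A)-selected libraries. Their processing notes name Trimmomatic, STAR 2.7.1a, Picard 2.20.4, StringTie 2.0.4, featureCounts 1.6.0, HTSeq and GRCm38. The strand setting of the counting is not given in the sources used here, although the library kit is directional.

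Identifiers were matched to GENCODE M21. R 4.3.3 with edgeR 4.0.16 was used: TMM factors, filterByExpr with a count minimum of 10, robust quasi-likelihood fits and Benjamini-Hochberg adjustment over all genes tested, with 0.05 as the threshold. PBMT effects were fitted within each library project (12 mice), and the other comparisons over 24 mice. Alternatives were DESeq2 1.42.0, limma 3.58.1 voom with sample weights, size factors of DESeq2, no filter, at least 10 counts in every mouse, a replicate block, fits of all 24 or only the 12 mice compared, and leaving out each mouse; for covariation also raw totals and a prior count of 0.5. The steps were tested on simulated data. Python 3.11.15 with numpy 2.4.6, pandas 2.3.3, scipy 1.17.1 and matplotlib 3.10.9 gave the other values. Covariation used log2 CPM with a prior count of 2, centred on group means, with 100000 permutations within groups, whose smallest possible p is 1e-05. Single-gene tests were exact and two-sided.

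The members and lists were chosen with earlier results of these data known. Named from each list were up to 4 genes past the threshold with the smallest p and the gene of largest fold change in each comparison. Some genes that this rule names are not reported here. Zfp36 and Dusp1 were named after their values were seen, and the promoter motifs were chosen after the sequences were seen. Promoter sequences for 2 of the 9 genes, Fosl1 and Ier2, were not used here.

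Exercise and library project are the same split and cannot be told apart. Bulk counts do not separate cell types, 1 time point was sampled, and run times were not analysed here. Counts of genes that overlap another on the opposite strand are uncertain to that extent. With 6 mice per group, a p that misses the threshold does not show that values did not differ.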

Additional observations from a re-analysis of the deposited data

Results flagged for a closer look

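Of 36 groups of 6 mice (9 genes in 4 groups), 2 had a mouse set apart from the others by a gap that was large beside the range of its group. Fosl1 in fatigued PBMT replicate 2 stood at 0.105 CPM, below the others at 0.637 to 1.43 CPM (ratio 0.667 in log2 CPM). Atf3 in fatigued control replicate 6 stood at 249.9 CPM, above the others at 70.7 to 84.6 CPM (ratio 0.858 in log2 CPM). Chance sets apart about 1 in 20 groups, so 2 of 36 is near what chance gives.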

How the results depend on the processing

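Of 925 fold changes of the members under other settings, 867 kept direction and side of the threshold, 23 lost and 6 gained a call, and 29 changed sign. With the replicate block, 1 member passed for PBMT at rest in place of 0 (Fos, adjusted p = 0.0374, against 0.349), and 1, Fosl2, passed with limma voom and with DESeq2; without 1 mouse the number ran from 0 to 1. Without a filter, 3 members passed between fatigued and sedentary controls in place of 5, and without 1 mouse 3 to 5. With only the 12 mice compared 6 passed, Fosb and Fosl2 among them, and Fosl1 was not tested. In the other settings that tested it, Fosl1 passed in 5 of 5. Among PBMT mice 5 to 6 members passed without 1 mouse. With only the 12 PBMT mice Junb did not pass and Fosl1 was not tested. With at least 10 counts in every mouse Fosb and Fosl1 were not tested. With voom the log2 fold change was 0.12 for Jun with PBMT at rest, -0.07 for Jund and -0.04 for Ier2 with PBMT after fatigue, and 0.12 for Jund between fatigued and sedentary controls. The cause was not tested.

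Leaving out 1 mouse in turn gave these ranges. With PBMT at rest, Jun ran from -0.13 to 0.07. With PBMT after fatigue, Fos ran from -0.25 to 1.00, Fosb from -0.28 to 0.86, Jund from -0.06 to 0.17, Atf3 from -0.06 to 0.68 and Ier2 from -0.11 to 0.12. The difference of PBMT effects ran from -0.26 to 0.00 for Jun and from -0.40 to 0.18 for Junb. Fatigued against sedentary muscle ran from -0.28 to 0.08 for Jund in controls, and from -0.11 to 0.93 for Fos and -0.21 to 0.02 for Ier2 with PBMT. None of these values had been called.

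The 3 covarying pairs became 0 without the 2 mice farthest from the median of Fos, and 1 to 5 without 1 mouse; the cause was not tested. Over all genes, calls for PBMT at rest went from 4 to 16 without a filter, 11 with the replicate block, 50 with voom, 60 with DESeq2 and 1 with all 24 mice, and from 2 to 20 without 1 mouse. After fatigue they went from 0 to 1 with the block and 2 with DESeq2. For all genes called, fatigued versus sedentary control muscle, the number went from 2809 to 4945 with voom. Whether replicate numbers link mice was checked by r between mice of the same number, which ran from -0.0715 to 0.0664 between the sedentary groups and from -0.0846 to 0.325 between the fatigued groups. In fatigued muscle the mouse of the same number was the closest of 6 for 3 of 6 mice, so a link there was not settled, and numbers were used only in the replicate block.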
